A study of Mus musculus with 15 samples.

Results

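The members described here are 10 genes of the unfolded protein response and the integrated stress response: Hspa5, Hsp90b1, Dnajb9, Herpud1, Xbp1, Atf4, Ddit3, Trib3, Asns and Chac1. They were chosen by name, and every array probe that carries one of these names was read, which gave 12 probes of 55681 on the array (10 of 34805 gene names). The data are 15 one-colour Agilent arrays of CD4 T cells, sorted by flow cytometry from small intestinal lamina propria, the tissue layer beneath the gut epithelium. All mice were male, and the labels name neither strain nor age. The control group ate normal chow, the day 10 group had been on a high-fat diet (HFD) for 10 days and the day 30 group for 30 days, with 5 arrays in each group. The diet was given to alter the gut microbiota, so the comparisons ask how the T cells differ early and later on it. No day is given for the controls, so time on the diet cannot be told apart from age, and whether each sample was a different mouse is not stated, so a p-value here reflects the spread among the arrays of this series alone.

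The unfolded protein response acts when misfolded protein builds up in the endoplasmic reticulum (ER), the compartment in which secreted and membrane proteins fold. The sensors IRE1 (gene Ern1), PERK (Eif2ak3) and ATF6 then raise the chaperone supply, through spliced XBP1 and cleaved ATF6, and slow translation, through phosphorylated eIF2 alpha. The integrated stress response shares that last step: PERK, the amino acid sensor GCN2 (Eif2ak4) and related kinases phosphorylate eIF2 alpha, which favours translation of ATF4, an activator of genes for amino acid supply and, under lasting stress, of CHOP (Ddit3). In T cells these pathways are known from activation, when protein synthesis rises, and from nutrient shortage.

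Promoters were searched for 4 elements that these pathways are known to act through. Matches were found in 6 of the 10 members, and the promoters of 5 are shown. All 10 members had an entry among the RefSeq promoter windows (build GRCm38.p6, 250 bases before to 50 after the start). The ER stress element (ERSE, a CCAAT box and CCACG at a set distance, searched on both strands like the others) was found in Hspa5 once and in Hsp90b1 at 2 places, and in 39 of all 32851 windows (0.119%). The related element ERSE-II, in which ATTGG and CCACG nearly touch, was found in Herpud1 and in 12 windows in all (0.0365%). TGATGNAA, the core of the element bound by ATF4 with C/EBP proteins, was found in Asns, Chac1, Herpud1 and Trib3 and in 3.97% of all windows, and the XBP1 element TGACGTGG in none of the 10 and in 0.676% of all windows. A match describes the letters only, and whether a shared element bears on the values below was not tested. The lines give the strand of transcription, 5′ to 3′, with each match in capitals (as its complement where it lies on the other strand). They cover chr2:34772000-34772068 (+) for Hspa5, chr10:86705508-86705681 (-) for Hsp90b1, chr8:94386292-94386412 (+) for Herpud1, chr2:119351024-119351081 (+) for Chac1 and chr6:7693210-7693257 (-) for Asns.
Hspa5: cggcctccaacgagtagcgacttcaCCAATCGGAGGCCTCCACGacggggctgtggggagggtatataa
Hsp90b1: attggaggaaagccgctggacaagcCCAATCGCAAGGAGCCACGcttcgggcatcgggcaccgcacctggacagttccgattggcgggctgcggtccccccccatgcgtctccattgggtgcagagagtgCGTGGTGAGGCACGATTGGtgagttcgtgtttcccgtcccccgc
Herpud1: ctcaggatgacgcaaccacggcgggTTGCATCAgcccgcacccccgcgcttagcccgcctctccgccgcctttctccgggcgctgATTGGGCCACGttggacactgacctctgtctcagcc
Chac1: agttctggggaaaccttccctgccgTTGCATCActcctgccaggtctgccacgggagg
Asns: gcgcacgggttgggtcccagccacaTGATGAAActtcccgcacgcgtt
The single match in Hspa5 lies at -65 to -47 from the start, and the first of the pair in Hsp90b1 at -212 to -194. Herpud1 holds both kinds of element, the ATF4 core at -112 to -105 and ERSE-II at -52 to -42.

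Levels are log2 of the processed intensity minus the 75th percentile of the array, so 0 is the level of that percentile and 1 unit is a doubling. They can be compared between arrays for a probe but not between probes. A spot counts as detected where the scanner software marked it well above background. Over all spots that were not controls, controls had a detected share of 63.8% ± 12.0 (SD, n = 5). The day 10 arrays had 58.5% ± 2.91 and the day 30 arrays 51.3% ± 5.48 (SD, n = 5 each). Control replicate 1 stood apart with 82.0%, and day 30 replicate 3 was lowest with 45.2%. The share at day 30 differed from that at day 10 with p = 0.0397 and from control with p = 0.0556, while day 10 and control gave p = 0.421 (exact permutation, two-sided, unadjusted). Slide 1 held the 5 controls and day 10 replicates 1 to 3, and slide 2 held the others, so no slide held both control and day 30. All 10 CD4 T cell markers were detected on all 15 arrays, with Cd4 at 3.31 ± 0.52, 3.67 ± 0.39 and 4.10 ± 0.75 (SD, n = 5 each, in the order control, day 10, day 30) and Cd3e at 1.13 ± 0.95, 0.45 ± 0.92 and 1.17 ± 1.26. Of the 10 markers, 8 had a higher mean at day 10 than in control and 10 at day 30, among them Cd5 with 1.52 ± 1.23 in control and 3.00 ± 0.81 at day 30. Their summed linear level, in multiples of the 75th percentile of the array, ranged from 47.3 to 232.4 in control, 106.4 to 203.3 at day 10 and 105.7 to 284.3 at day 30, with the highest sum on day 30 replicate 3. The part of this in the stress gene values was not tested.

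Of the 10 members, 8 were detected on all 15 arrays: Hspa5, Hsp90b1, Dnajb9, Herpud1, Xbp1, Atf4, Ddit3 and Trib3. Asns was detected on 7 arrays and passed the minimum of 5 for testing, while Chac1 was detected on 3 and was not tested. None of the 9 tested members passed an adjusted p under 0.05 (limma, Benjamini-Hochberg over 25987 genes) at day 10 or day 30 against control, or at day 30 against day 10. Over all genes tested, 0% were called in each of these comparisons. At an unadjusted p under 0.05 the count of members was also 0 in each, against 2.61%, 5.19% and 4.11% of all genes tested. The 2 groups overlapped for all 12 member probes in each comparison, where 0.427%, 0.646% and 0.573% of all genes tested did not overlap. Of the 9 members, 6 had a higher mean at day 10 than in control (median difference 0.25), 6 at day 30 than in control (0.52) and 5 at day 30 than at day 10 (0.22). The medians over all genes tested were -0.01, -0.01 and 0.05. Over the 11596 genes detected on all arrays they were 0.05, 0.20 and 0.18, beside 0.26, 0.54 and 0.29 for the 8 members among them. Without control replicate 1, the count of members with a higher mean at day 10 than in control was 1 of 9 (median -0.25), and at day 30 it was 5 of 9 (median 0.03). The counts also turned with other settings. With slide as a fixed block, 4 of 9 members were higher at day 30 than in control (median -0.19) and 3 of 9 at day 30 than at day 10 (-0.05). In the deposited table, 7 of the members had at least 2 values in every group, so Hsp90b1, Asns and Chac1 were left out. There 2 of 7 were higher at day 30 than in control (median -0.08) and 2 of 7 than at day 10 (-0.22). The medians over all genes tested in that table were -0.25 and -0.15. Quantile normalization gave 4 of 9 (-0.08) for day 30 against day 10.

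**Figure D1:**
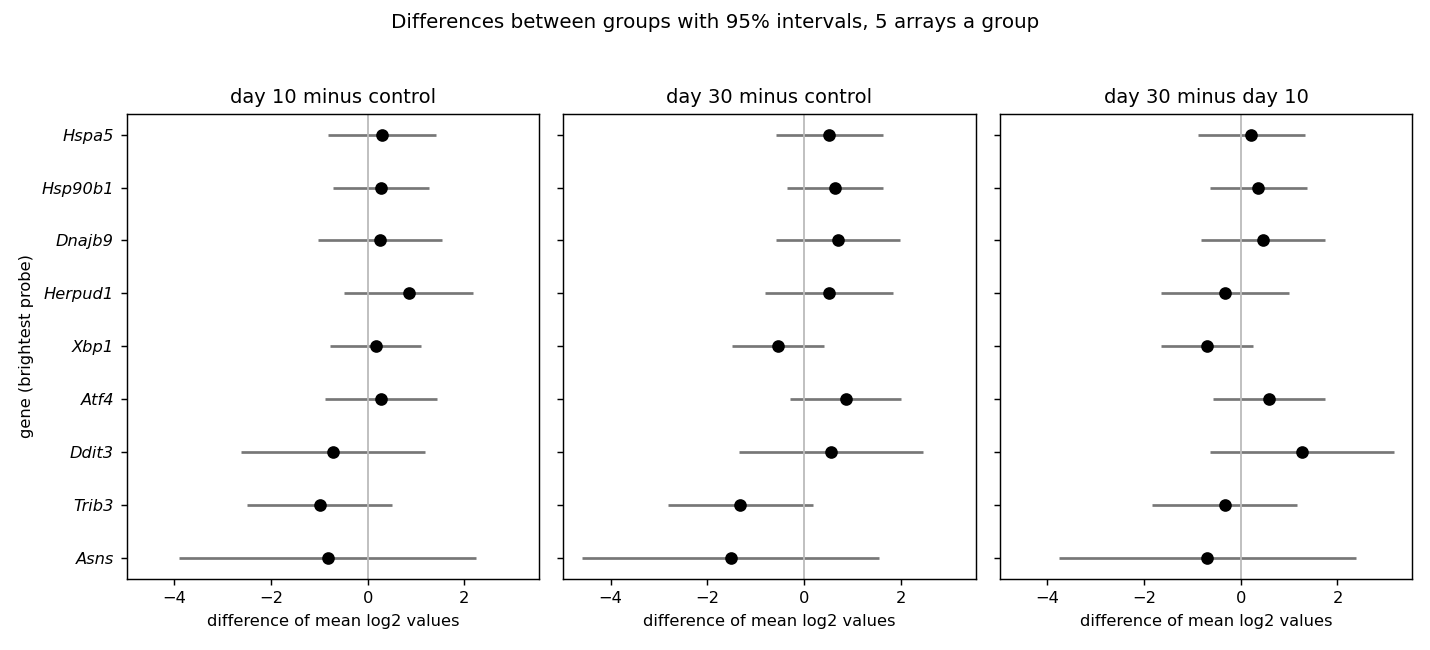
Differences of mean log2 values between groups (horizontal axis) for the 9 tested members (vertical axis), with 95% intervals as lines; each group held 5 arrays. All 27 intervals cross 0, from the narrow ones of Xbp1 and Hsp90b1 to the widest, that of Asns.

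Hspa5 encodes BiP, the main ER member of the HSP70 chaperones and the protein that holds the sensors inactive. In control replicates 1 to 5 it read 1.90, 3.55, 5.21, 4.77 and 4.67. In day 10 replicates 1 to 5 it read 3.92, 4.33, 4.17, 4.78 and 4.40, and in day 30 replicates 1 to 5 5.15, 4.20, 5.35, 3.64 and 4.35. Control replicate 1 lay below every other array and control replicate 3 above all but day 30 replicate 3, so the control group alone spanned nearly the whole range. The means were 4.02 ± 1.33 in control, 4.32 ± 0.31 at day 10 and 4.54 ± 0.71 at day 30 (SD, n = 5 each). The difference was 0.30 (SE 0.52) at day 10 and 0.52 (SE 0.52) at day 30 against control, with 95% intervals of -0.81 to 1.41 and -0.59 to 1.63. Without control replicate 1 these differences were -0.23 and -0.01. The interval at day 30 thus leaves room for a change in either direction, from -0.59 to 1.63 log2 units.

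Hsp90b1 encodes GRP94, the HSP90 chaperone of the ER, which folds integrins and Toll-like receptors among others. It read 4.18, 6.23, 7.51, 6.85 and 6.70 in control replicates 1 to 5. At day 10 it read 6.29, 6.48, 6.40, 6.998 and 6.66, and at day 30 7.27, 6.87, 7.68, 6.09 and 6.75. The arrays stood nearly in the order they had for Hspa5, with control replicate 1 lowest and day 30 replicate 3 highest, and the day 10 arrays lay closest together. Means were 6.29 ± 1.26, 6.57 ± 0.28 and 6.93 ± 0.59 (SD, n = 5 each). The difference from control was 0.27 (SE 0.47) at day 10 and 0.64 (SE 0.47) at day 30, the latter with a 95% interval of -0.36 to 1.63. Without control replicate 1 these were -0.25 and 0.11.

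Dnajb9 encodes ERdj4, a J-domain partner of BiP and a known target of spliced XBP1. It had 2 probes, on mm9 chr12:45307313-45307372 and chr12:45308272-45308331, starting at bases 1376 and 417 of the transcript per the scanner files. The first, brighter probe read 0.88, 3.70, 4.67, 3.99 and 3.07 in control, 3.69, 2.51, 3.65, 4.19 and 3.51 at day 10, and 4.00, 3.63, 5.38, 3.22 and 3.61 at day 30. Control replicate 1 was again lowest and day 30 replicate 3 again highest, and all day 10 values lay within the range of the controls. Its differences from control were 0.25 (SE 0.60) at day 10 and 0.70 (SE 0.60) at day 30. The other probe was detected on 5, 3 and 4 of the 5 arrays in control, day 10 and day 30. It averaged -0.35 ± 1.35, -2.78 ± 1.98 and -1.18 ± 2.17 (SD, n = 5 each), which made differences of -2.42 (SE 1.11) and -0.83 (SE 1.11). The probes thus had opposite signs in both comparisons. The unadjusted p of 0.0441 for this probe at day 10 became 0.99998 after Benjamini-Hochberg adjustment over all 38432 probes tested (limma).

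Herpud1 encodes HERP, an ER membrane protein of the degradation machinery for misfolded protein. It read -0.24, 2.10, 2.59, 2.27 and 1.86 in control. At day 10 it read 1.46, 2.30, 3.09, 2.60 and 3.39, and at day 30 1.55, 2.10, 4.10, 2.44 and 0.99. Of the day 10 arrays, 3 lay above every control, and at day 30 only replicate 3 did. With means of 1.72 ± 1.12, 2.56 ± 0.75 and 2.24 ± 1.18 (SD, n = 5 each), the difference from control was 0.85 (SE 0.63) at day 10, with a 95% interval of -0.48 to 2.17, and 0.52 (SE 0.63) at day 30. Control replicate 1 weighed on these: without it they were 0.36 and 0.03.

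Xbp1 encodes the transcription factor that IRE1 activates by splicing its mRNA and that plasma cells need for secretion. Its probe (mm9 chr11:5425816-5425875) is annotated to 2 RefSeq transcripts, so the value gives no split between spliced and unspliced forms. It read -0.16, 1.04, 1.70, 1.69 and 0.89 in control, 0.96, 1.43, 1.21, 1.53 and 0.84 at day 10, and 0.22, 0.71, 1.13, -0.35 and 0.75 at day 30. At day 30, 4 of 5 arrays lay below every day 10 array, and replicate 3 was the exception. Means were 1.03 ± 0.76, 1.19 ± 0.29 and 0.49 ± 0.57 (SD, n = 5 each). The difference was 0.16 (SE 0.45) at day 10 against control, -0.54 (SE 0.45) at day 30 against control and -0.70 (SE 0.45) at day 30 against day 10. The last has a 95% interval of -1.65 to 0.25, and its unadjusted p of 0.136 became 0.999 (limma, adjusted over all genes). Over 30 alternative settings the difference of day 30 against day 10 ranged from -1.10 to -0.49. Several of these settings, such as leaving out a control array, could not change it.

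Plasma cells carry much Xbp1, so markers of B cells and plasma cells were read beside it. Of the 14 listed, 12 were matched to a probe, and 4 of these were detected on all 15 arrays (Cd22, Jchain, Pax5 and Ighm). Ms4a1, the gene for CD20, was detected on none. Plasma cell genes were detected in part: of 5 arrays each in control, day 10 and day 30, Sdc1 was detected on 4, 3 and 4, Mzb1 on 2, 2 and 2, Tnfrsf17 on 1, 2 and 1, and Derl3 on 2, 2 and 0. Cd79a was detected on 2, 2 and 4 and Cd79b on 5, 4 and 4. Jchain, the joining chain of secreted antibody, averaged 0.06 ± 1.85 in control, 2.21 ± 1.45 at day 10 and 2.04 ± 2.78 at day 30 (SD, n = 5 each). Summed over the list on the same linear scale, the level ranged from 36.5 to 54.1 in control, 31.4 to 62.2 at day 10 and 37.4 to 71.8 at day 30. The probe of Cd22 alone made up 58.5% to 94.8% of that summed signal, and without it the ranges were 1.97 to 6.14, 2.00 to 18.2 and 4.89 to 29.8. Since levels cannot be compared between probes, this is a share of signal and not of transcripts. Of the 12 markers, 5 had a higher mean at day 10 than in control and 9 at day 30. The secretory epithelium, whose cells also carry a large ER, was read through 10 markers, 2 of them detected on all 15 arrays, and its sum ranged from 3.71 to 17.1, 2.86 to 8.94 and 2.03 to 15.1. Defa24 made up 33.7% to 87.2% of it, again a share of signal, and without Defa24 the ranges were 1.39 to 4.72, 0.979 to 2.42 and 0.661 to 5.07. The part of such cells in the Xbp1 values was not tested. In sorted bulk samples, fewer cells of a type and less RNA per cell cannot be told apart.

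**Figure D2:**
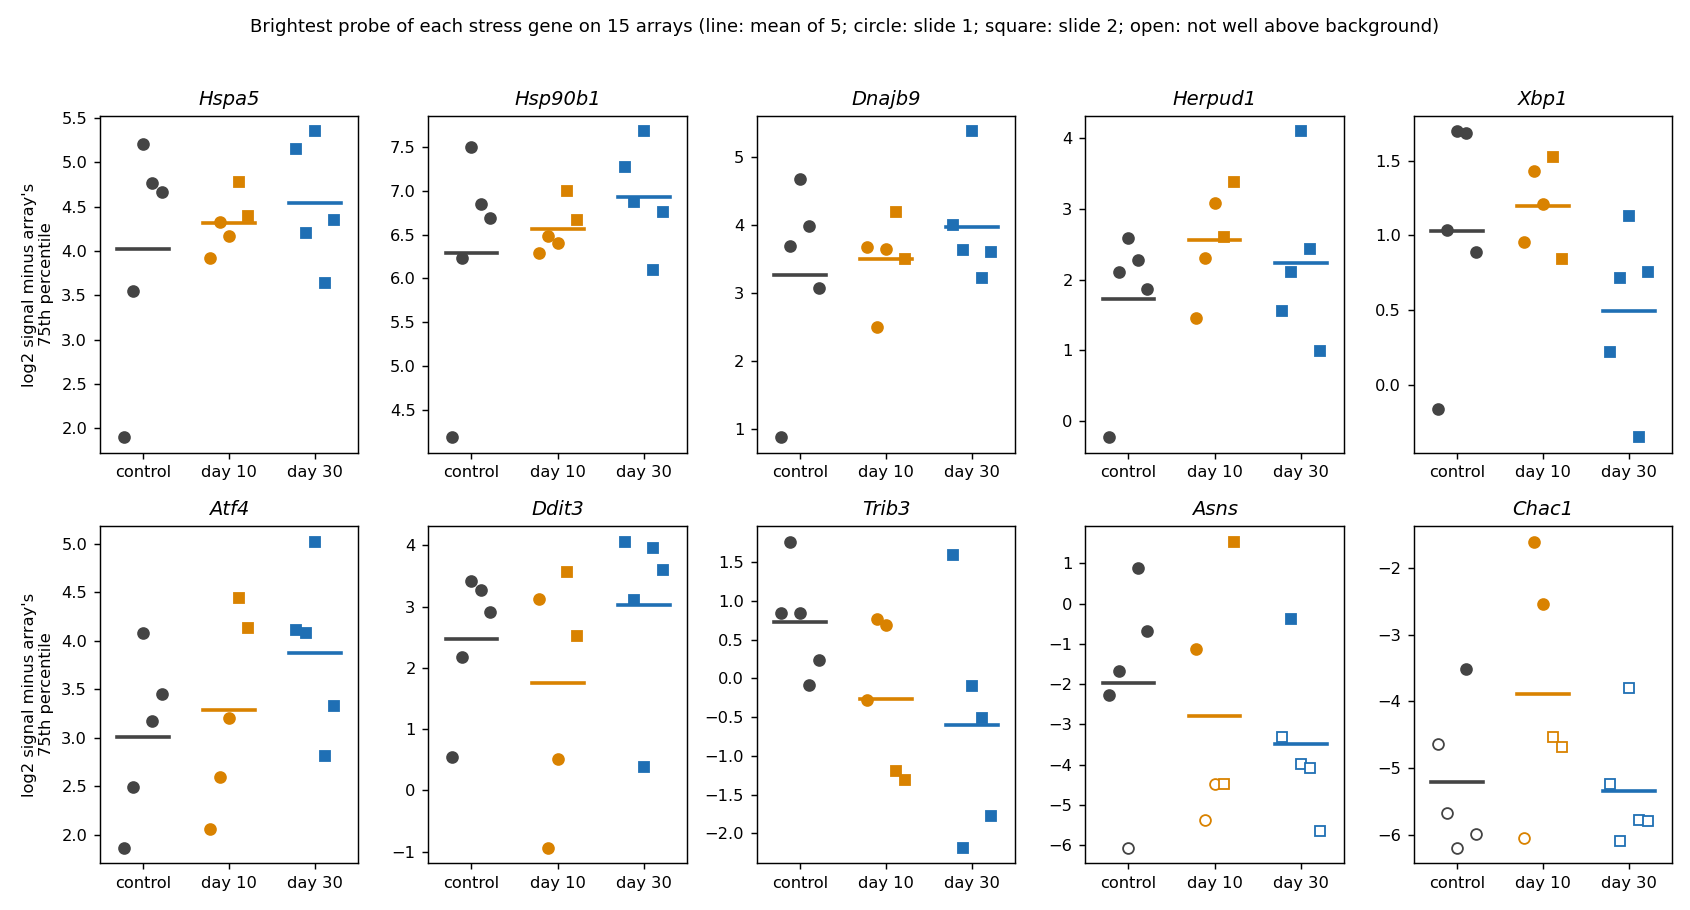
Level of the brightest probe of each of the 10 members on the 15 arrays, as log2 signal minus the 75th percentile of the array (vertical axis, its own range in each panel), by group; lines are means of 5 arrays, circles slide 1, squares slide 2, and open symbols were not well above background. Groups overlap in every panel, and control replicate 1 (leftmost control) is lowest for Hspa5, Hsp90b1, Dnajb9, Herpud1 and Atf4.

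Atf4 encodes the central transcription factor of the integrated stress response. Its brighter probe (mm9 chr15:80087902-80087961) read 1.87, 2.49, 4.08, 3.17 and 3.45 in control. At day 10 it read 2.06, 2.60, 3.20, 4.44 and 4.13, and at day 30 4.12, 4.08, 5.02, 2.81 and 3.32. At day 10 the pair of arrays on slide 2, replicates 4 and 5, lay above the 3 on slide 1, and at day 30 3 of 5 arrays lay above every control. Means were 3.01 ± 0.86, 3.29 ± 1.00 and 3.87 ± 0.85 (SD, n = 5 each). The difference from control was 0.27 (SE 0.54) at day 10 and 0.86 (SE 0.54) at day 30, the latter with a 95% interval of -0.29 to 2.01 and an adjusted p of 0.932 (limma). The other probe (mm9 chr15:80086639-80086698) had the same signs, 0.78 (SE 1.00) and 1.61 (SE 1.00). With slide as a fixed block the differences of the brighter probe were -0.39 and -0.81, so the direction turned. Atf4 is regulated largely through translation, which arrays do not measure.

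Ddit3 encodes CHOP, a transcription factor known for promoting cell death when stress persists. It read 0.54, 2.18, 3.42, 3.28 and 2.92 in control, 3.13, -0.94, 0.51, 3.57 and 2.52 at day 10, and 4.06, 3.11, 0.39, 3.95 and 3.60 at day 30. Each group held at least 1 array far below the rest, and at day 30 3 of 5 arrays lay above every array of the other groups. Means were 2.47 ± 1.18, 1.76 ± 1.91 and 3.02 ± 1.52 (SD, n = 5 each). The differences from control were -0.71 (SE 0.89) and 0.55 (SE 0.89), and the largest of its differences was 1.27 (SE 0.89) at day 30 against day 10, with a 95% interval of -0.63 to 3.16. Within slide 2, which held 2 day 10 and 5 day 30 arrays, that difference was -0.02, and with slide as a fixed block the day 30 difference from control turned to -1.59.

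Trib3 encodes a pseudokinase that ATF4 and CHOP induce and that damps ATF4 activity. It read 0.85, 1.76, 0.84, -0.08 and 0.24 in control. At day 10 it read -0.28, 0.76, 0.69, -1.19 and -1.32, and at day 30 1.59, -2.18, -0.10, -0.51 and -1.78. Below every control lay 3 of 5 arrays at day 10 and 4 of 5 at day 30, while day 30 replicate 1 was the second highest of all arrays. Means were 0.72 ± 0.71, -0.27 ± 0.99 and -0.60 ± 1.50 (SD, n = 5 each). Trib3 had the smallest unadjusted p of the 9 tested members at day 30 against control, 0.0807, for a difference of -1.32 (SE 0.71) with a 95% interval of -2.82 to 0.18. Adjusted over all genes it was 0.926 (limma). At day 10 the difference was -0.99 (SE 0.71). The lower values lay on slide 2 at day 10 too, and with slide as a fixed block the day 30 difference was 0.33.

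Asns and Chac1, known ATF4 targets, were detected on fewer arrays than the other members. Asns encodes asparagine synthetase and was detected on 4 of 5 control, 2 of 5 day 10 and 1 of 5 day 30 arrays. Its means were -1.96 ± 2.58, -2.79 ± 2.91 and -3.48 ± 1.93 (SD, n = 5 each), for differences from control of -0.83 (SE 1.45) and -1.52 (SE 1.45). These count undetected spots at their read value, and with values raised to the lowest detected signal of the array the group means were -1.54, -2.21 and -2.79. The detected share of all spots was also highest in control and lowest at day 30, and its part in the Asns counts was not tested. Chac1, which encodes an enzyme that degrades glutathione, was detected on control replicate 4 (-3.52) and day 10 replicates 2 (-1.60) and 3 (-2.53) and on no day 30 array. No fold is given for Chac1, since the raised day 30 mean of -3.50 was above the day 10 mean of -3.88.

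**Figure D3:**
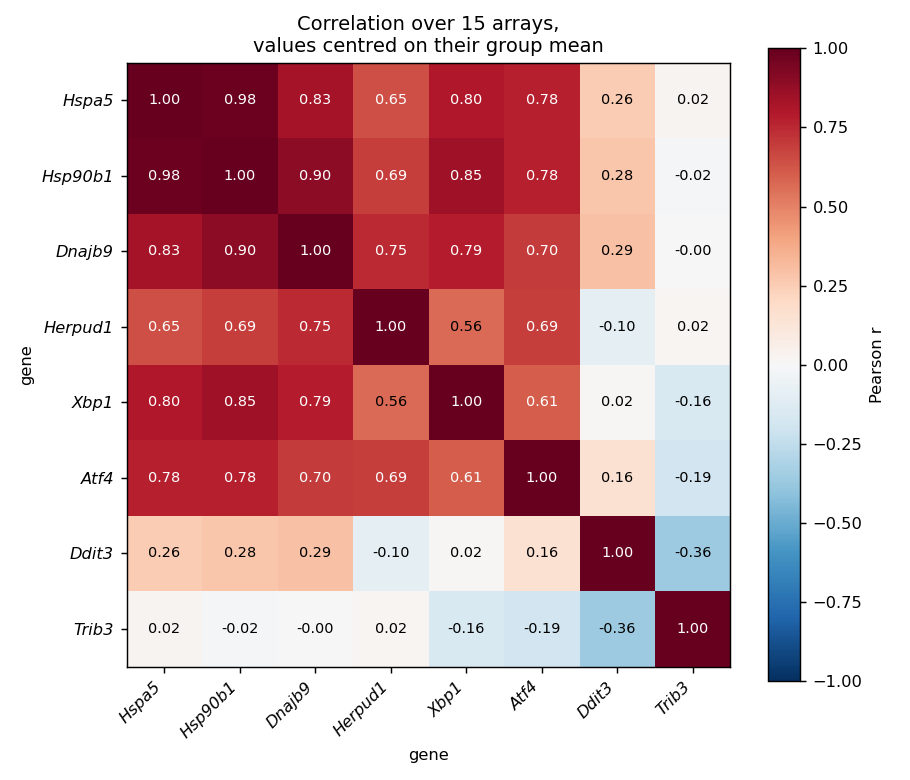
Pearson correlation (colour and printed value) between the 8 members detected on all arrays, over 15 arrays whose values were centred on their group mean. Hspa5, Hsp90b1, Dnajb9, Xbp1, Herpud1 and Atf4 correlate positively with each other, from 0.56 to 0.98, while Ddit3 and Trib3 lie between -0.36 and 0.29 with the rest and with each other.

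The ER chaperones varied together between arrays of a group. Over 15 arrays, with values centred on the group mean, Hspa5 and Hsp90b1 had r = 0.978 and rho = 0.914. Their permutation p-values from 100000 resamples were 1e-05 (the smallest they can give) and 2e-05, or 0.00028 and 0.00042 after Benjamini-Hochberg adjustment over 28 pairs. Without control replicates 1 and 3, the farthest from the median, r was 0.950. It was 0.981 over the 8 arrays of slide 1 and 0.969 over the 7 of slide 2. Hsp90b1 and Dnajb9 had r = 0.898 and rho = 0.768 (adjusted permutation p = 0.00315 and 0.0237), and r = 0.712 without those arrays. Xbp1 and Hsp90b1 had r = 0.848 and rho = 0.675 (adjusted permutation p = 0.0124 and 0.0674), and r = 0.606 without control replicate 1 and day 30 replicate 4. Of the 28 pairs of members, 22 had a positive r, the median was 0.59, and 13 had an adjusted permutation p under 0.05 for r. No such count was made over pairs of other genes, so these counts have no background.

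Ddit3 and Trib3, both known to act downstream of ATF4, had weak correlations with it. Atf4 with Ddit3 had r = 0.16 and rho = 0.19, Atf4 with Trib3 r = -0.19 and rho = -0.17, and Ddit3 with Trib3 r = -0.36 and rho = -0.31 (adjusted permutation p = 0.396 and 0.480). Atf4 instead varied with the chaperones, at r = 0.777 with Hspa5 and 0.775 with Hsp90b1 (rho = 0.789 and 0.875, adjusted permutation p of r = 0.000747 and 0.00028). The correlations of Ddit3 depended on the arrays. Without day 10 replicate 2 and day 30 replicate 3, r was 0.635 with Hspa5, 0.636 with Hsp90b1 and 0.613 with Dnajb9. It was then 0.425 with Xbp1, 0.268 with Herpud1 and -0.214 with Trib3. With Hspa5, Hsp90b1 and Dnajb9, r was 0.537, 0.576 and 0.735 on slide 1. On slide 2 it was -0.348, -0.423 and -0.584.

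**Figure D4:**
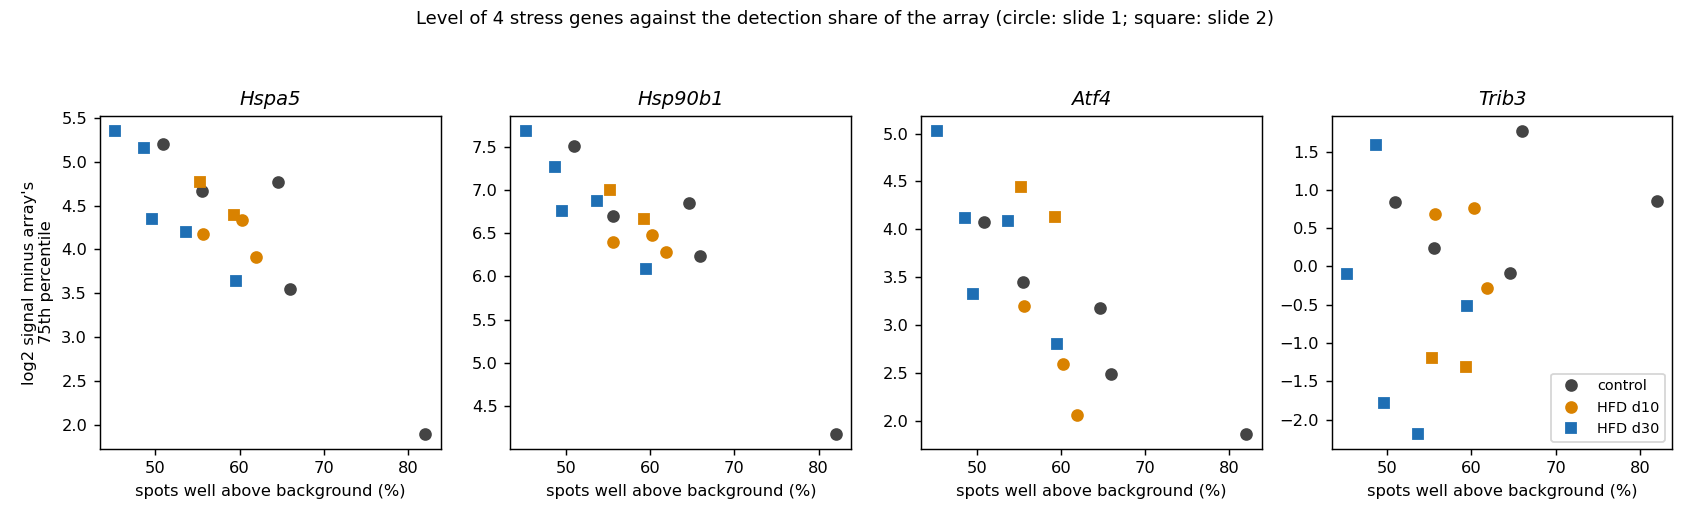
Level of Hspa5, Hsp90b1, Atf4 and Trib3 (vertical axis, log2 signal minus the 75th percentile of the array) against the share of spots well above background on the array (horizontal axis, percent), by group (colour) and slide (shape). The first 3 are lower where the share is higher, down to control replicate 1 at 82.0%, and the Trib3 points show no slope (r = -0.022 after centring on group means).

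The same members tracked the detected share of the array. Centred on group means over 15 arrays, the share had r = -0.928 with Hsp90b1 and -0.921 with Hspa5 (rho = -0.789 and -0.868, adjusted permutation p of r = 0.001 and 0.0004 over 8 relations). It had r = -0.804 with Dnajb9, -0.752 with Xbp1, -0.738 with Atf4 and -0.600 with Herpud1 (rho = -0.589, -0.618, -0.793 and -0.496), and adjusted permutation p of r = 0.0127, 0.0212, 0.00125 and 0.0614. Ddit3 and Trib3 were at r = -0.224 and -0.022 (rho = -0.125 and -0.036, adjusted permutation p of r = 0.424 and 0.933). Without control replicates 1 and 3 the correlations were -0.764 for Hsp90b1, -0.786 for Hspa5, -0.678 for Atf4, -0.456 for Dnajb9, -0.455 for Xbp1 and -0.248 for Herpud1. Within slide 1 (8 arrays) and slide 2 (7 arrays) they were -0.928 and -0.930 for Hsp90b1 and -0.922 and -0.930 for Hspa5. With the share taken out of both genes, Hspa5 and Hsp90b1 had r = 0.847, Hsp90b1 and Dnajb9 0.685, Xbp1 and Hsp90b1 0.611, and Atf4 and Hsp90b1 0.360. Among other pairs, Atf4 and Xbp1 went from 0.608 to 0.119, Atf4 and Dnajb9 from 0.702 to 0.270, and Xbp1 and Hspa5 from 0.801 to 0.421. With the share as a covariate in the fit, 1, 0 and 1 of the 9 members had a higher mean in the later group of the 3 comparisons, and the members' median at day 30 against control was -0.59. What the share stands for in these cells was not tested.

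The genes of highest correlation with Hspa5, Xbp1, Atf4 and Ddit3 were also read. They were picked as the highest r among 25987 genes tested, and a maximum over so many genes tends to be high. No such search is given for other genes, so these values have no background. They cannot show whether genes outside the pathway followed a member as closely as its fellow members did. By the highest r over the 15 centred arrays among all tested genes, Hspa5 was most like a probe without a gene name here (A_55_P2097840, 0.986), Rbm39 (0.984) and Ncl (0.978). Xbp1 was most like Ubl3 (0.923), Mkln1 (0.922) and Map3k1 (0.922). Atf4 was most like a further unnamed probe (A_55_P2134977, 0.911), 4932431P20Rik (0.902) and Wac (0.902), and Ddit3 like Fmnl1 (0.888), Hhipl2 (0.886) and Gmcl1 (0.883).

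A wider set of 100 genes of both pathways, in 8 lists by role, was read from the same fit: 96 were tested and 55 were detected on all arrays. None was called in any comparison. At day 10, day 30 and day 30 against day 10, 58, 55 and 55 of the 96 had a higher mean in the later group, with medians of 0.12, 0.17 and 0.11. Over all genes tested, 49.5%, 49.7% and 52.6% had a higher mean. The medians over the 11596 genes detected on all arrays were 0.05, 0.20 and 0.18. At an unadjusted p under 0.05, 0 were higher and 1 lower at day 10, 4 higher and 2 lower at day 30, and 2 higher and 2 lower between the diet days. These counts of 1, 6 and 4 of 96 stand beside 2.61%, 5.19% and 4.11% of all genes tested.

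**Figure D5:**
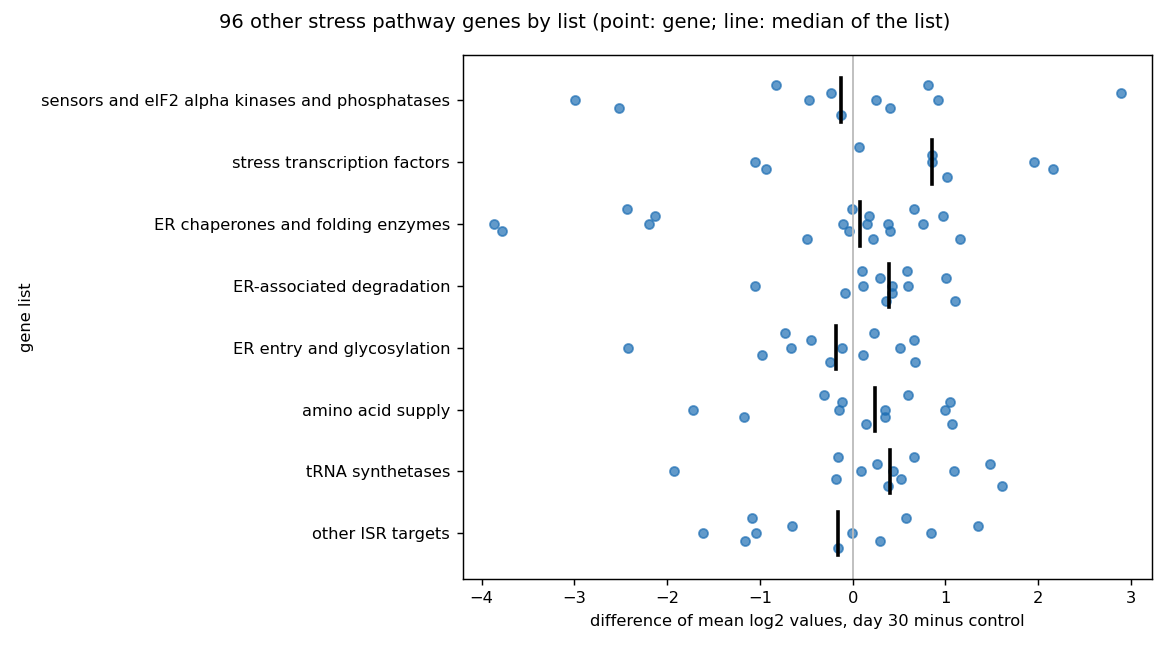
Difference of mean log2 values at day 30 minus control (horizontal axis) for 96 tested genes of 8 role lists (vertical axis); points are genes and black lines list medians. The medians run from -0.18 for ER entry and glycosylation to 0.85 for the stress transcription factors, and single genes spread from -3.87 to 2.89.

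Among the sensors and the eIF2 alpha kinases and phosphatases, 7 of 11 had a higher mean at day 10 and 5 of 11 at day 30 (medians 0.17 and -0.12). The sensor gene Ern1 averaged 4.85 ± 0.94 in control, 5.02 ± 0.65 at day 10 and 4.73 ± 0.86 at day 30 (SD, n = 5 each), with differences from control of 0.17 (SE 0.49) and -0.12 (SE 0.49), while its other 3 probes gave 0.53 to 0.86 at day 30. Atf6 averaged 1.34 ± 1.28 in control and was detected on 5 control, 3 day 10 and 3 day 30 arrays, with differences of -2.97 (SE 1.77) and -2.99 (SE 1.77) at the read values, or -2.27 and -2.18 with undetected values raised to the lowest detected signal of their array. Eif2ak4, which encodes GCN2, differed by 0.06 (SE 0.43) and 0.40 (SE 0.43), and Eif2ak3 was not tested. Atf6b, a paralog of Atf6, was detected on 4 control and 5 day 30 arrays and differed by 2.89 (SE 1.20), or by 2.53 with raised values, with unadjusted p = 0.0278 and adjusted p = 0.926 (limma). Mbtps1, a protease that cleaves ATF6, differed by 1.89 (SE 1.12) at day 10, but its other probe by -0.36.

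The stress transcription factors had the highest list median, 0.85 at day 30 against control with 6 of 8 higher. Atf3, an ATF4 target, averaged -0.47 ± 3.36 at day 10 and 2.95 ± 1.21 at day 30 (SD, n = 5 each), a difference of 3.42 (SE 1.29), with unadjusted p = 0.0173 and adjusted p = 0.999 (limma). It was detected on 4 of 5 day 10 and all 5 day 30 arrays, the groups overlapped, and with raised values the difference was 3.02.

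The ER chaperones and folding enzymes outside the members split evenly at day 30, with 9 of 18 higher and a median of 0.08. Ero1a, an oxidase that supplies disulfide bonds, went from 0.62 ± 1.08 in control, detected on 5 arrays, to -3.25 ± 3.14 at day 30, detected on 2 (SD, n = 5 each). The difference of the read values was -3.87 (SE 1.23), with an unadjusted p of 0.00643 and an adjusted p of 0.923 (limma), and it rests in part on the 3 undetected arrays. With values raised to the lowest detected signal it was -2.76. Its paralog Ero1b averaged 1.71 ± 1.05 at day 10 and -2.02 ± 3.22 at day 30, a difference of -3.73 (SE 1.35), or -3.17 with raised values, and was detected on 5 and 3 arrays. Dnajc3, the BiP partner P58IPK, was detected on 4 control, 2 day 10 and 0 day 30 arrays. Its control mean of -1.67 ± 1.88 was at least 3.55-fold higher than at day 30, against the mean of the lowest detected signals. The read values gave an adjusted p of 0.926 (limma). Between the 2 groups they did not overlap, as for 0.419% of all genes tested in that direction. However, the lowest control value, -4.49, and all day 30 values came from undetected spots. With values raised to the lowest detected signal the difference was -1.87. In ER-associated degradation, 7 of 12 genes were higher at day 10 and 10 of 12 at day 30 (medians 0.17 and 0.39), and in ER entry and glycosylation 7 and 5 of 12 (0.15 and -0.18).

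In amino acid supply, 8 of 12 genes were higher at day 10 and 7 of 12 at day 30. Slc3a2 encodes CD98, the heavy chain of the leucine transporter that T cells need for growth. It averaged 5.51 ± 0.81 in control, 6.15 ± 0.51 at day 10 and 6.55 ± 0.42 at day 30 (SD, n = 5 each). Its day 30 values, 6.12 to 7.24, lay above the controls, 4.08 to 6.07, with no overlap, as did 0.227% of all genes tested, for a difference of 1.05 (SE 0.36), unadjusted p = 0.0102 and adjusted p = 0.926 (limma). Psat1, of serine synthesis, differed by -2.68 (SE 1.05) at day 30 against day 10, and its other probe by -1.75. Of the tRNA synthetases 9 of 12 were higher at day 30 (median 0.41), with Iars at 1.62 (SE 0.67) and unadjusted p = 0.0276 (adjusted p = 0.926, limma).

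Of the other targets of the integrated stress response, 5 of 11 were higher at day 10 and 4 of 11 at day 30. Ddit4, which encodes the mTOR inhibitor REDD1, was detected on 4 control, 1 day 10 and 3 day 30 arrays. It averaged -1.11 ± 2.47, -4.85 ± 2.13 and -1.76 ± 3.12 (SD, n = 5 each), a difference of the read values of -3.74 (SE 1.50) at day 10 against control, with unadjusted p = 0.024 and adjusted p = 0.9999 (limma). With values raised to the lowest detected signal it was -2.26. Gdf15, a secreted stress hormone, averaged 0.78 ± 0.36, 0.77 ± 0.26 and 1.62 ± 0.47 (SD, n = 5 each). The day 30 values of Gdf15, 1.03 to 2.16, did not overlap those of day 10, 0.38 to 0.99, as for 0.285% of all genes tested in that direction, with a difference of 0.85 (SE 0.37) and adjusted p = 0.999 (limma). Vldlr, a lipoprotein receptor gene, was detected on 4 control and 1 day 10 arrays, with means of -2.87 and -3.46 after raising undetected values in this way.

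Whether the second interval of the diet differed from the first was tested by the difference between day 30 minus day 10 and day 10 minus control. No gene was called (0 of 25987, with 791 at an unadjusted p under 0.05). The largest among the members was that of Ddit3, 1.98 (SE 1.55), whose mean was lowest at day 10, followed by Herpud1 with -1.18 (SE 1.09), whose mean was highest at day 10, and the adjusted p was 0.9997 for both (limma).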

How the data were processed

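Per the file headers, the deposited intensity of a spot is linear, background subtracted and unscaled between arrays, from Agilent Feature Extraction 10.7.3.1 with a grid of build mm9. RNA was amplified by a commercial kit for small amounts before labelling, per the labels' protocols. The deposited value table, on a log2 scale with 1 distribution shared by all arrays, served as an alternative; how the authors reached that scale is not given in the sources used here.

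Spots of a probe were averaged, outlier spots and 1 damaged line were left out, and log2 values were set against the 75th percentile of the array. The brightest probe stood for a gene and was tested if well above background on at least 5 of 15 arrays (25987 genes tested, 8818 not). Names were updated through RefSeq transcripts for 29672 of 55681 probes. A model with 3 group means took in all 15 arrays (limma 3.58.1, R 4.3.3, intensity trend, two-sided), with Benjamini-Hochberg adjustment and a threshold of 0.05. The fit was tested on simulated data, at day 10 and day 30 against control and at day 30 against day 10. In that order it recovered 0%, 0% and 2% of changes of 1 log2 unit, and 10%, 18% and 16% of changes of 2 units. The number of arrays limits the precision.

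Members and lists were chosen with earlier results of these data known. Besides the members, the genes named are, per comparison, the 6 of smallest p in the wider lists, the sensors, Eif2ak4, marker genes and the 3 genes of highest correlation with Xbp1, Hspa5, Atf4 and Ddit3. The values of 1 listed marker are not reported here.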

Additional observations from a re-analysis of the deposited data

Results flagged for a closer look

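Chance marks about 1 in 20 sets of this size. Of 39 sets of 5 arrays checked, 2 held an array far from the others. Ddit3 on day 30 replicate 3 read 0.39, where the other day 30 arrays read 3.11 to 4.06. The gap was 0.741 of the range of the group, above Dixon's critical value of 0.71. Herpud1 on control replicate 1 read -0.24, where the other controls read 1.86 to 2.59, with a gap of 0.744 of the range. Day 30 replicate 3 had the lowest detected share of all arrays and control replicate 1 the highest, and the part of that share in these values was not tested.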

How the results depend on the processing

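Of 792 values of the 9 members under alternative settings, 736 kept the direction and stayed on the same side of the threshold, 56 turned direction (9 of them with 1 array left out), and none was called, the smallest adjusted p being 0.297 (limma). Not all of these values were free to turn, so 736 is not a count of independent checks. Leaving out an array of the group outside a comparison leaves its difference as it was. The replicate block and the fit on the arrays of the comparison alone did so too. The cause of each turn was not tested. The numbers of called genes were 0 in each comparison except these: at day 30 against control, 1 with slide as a fixed block and 7 with slide as a random block, whose estimated correlation was -0.063, and at day 30 against day 10, 1 with every probe tested separately. Leaving out 1 array at a time, called genes ranged from 0 to 1 at day 10, 0 to 2 at day 30 and 0 to 2 between the diet days (1 without day 30 replicate 4 in the first, and 2 without day 10 replicate 4 in each of the others), and the difference between intervals stayed at 0. The members' median then ranged from -0.25 to 0.54, 0.03 to 0.79 and 0.02 to 0.44. With the percentile taken over probes detected on all arrays, the median of all genes at day 30 against control was -0.38, and in the deposited table it was -0.25. The members' medians in these settings were 0.15 and -0.08.

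With the detected share as a covariate, the members' median at day 30 against control was -0.59. The day 10 differences were then -0.19 for Atf4, -0.32 for Dnajb9, -0.25 for Hsp90b1, -0.26 for Hspa5 and -0.13 for Xbp1. The day 30 differences were -0.21 for Atf4, -0.0079 for Ddit3, -0.63 for Dnajb9, -0.48 for Herpud1, -0.59 for Hsp90b1 and -0.79 for Hspa5. Day 30 against day 10 gave -0.028 for Atf4, -0.30 for Dnajb9, -0.33 for Hsp90b1 and -0.53 for Hspa5. With slide as a fixed block, Atf4 was at -0.39 at day 10, as within slide 1. At day 30 against control the block gave -0.81 for Atf4, -1.59 for Ddit3, -0.19 for Herpud1 and 0.33 for Trib3. At day 30 against day 10 it gave -0.41 for Atf4, -0.019 for Ddit3, -0.047 for Hspa5 and 0.66 for Trib3, as within slide 2. The mean over all probes of Dnajb9 gave -1.09 at day 10 and -0.061 at day 30. The deposited table gave -0.083 for Ddit3, -0.070 for Dnajb9 and -0.17 for Hspa5 at day 30 against control, and -0.072 for Dnajb9 and -0.22 for Hspa5 against day 10. Hspa5 at day 30 against day 10 was -0.082 after quantile normalization and -0.067 with the percentile over detected probes.

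Leaving out control replicate 1 and day 30 replicate 3 together, which was chosen after seeing the data, gave -0.013 for Atf4, -0.35 for Dnajb9, -0.25 for Hsp90b1, -0.23 for Hspa5 and -0.13 for Xbp1 at day 10. It gave -0.25 for Dnajb9, -0.44 for Herpud1, -0.076 for Hsp90b1 and -0.21 for Hspa5 at day 30. With 1 array left out at a time, the day 10 differences ranged from -0.015 to 0.58 for Atf4, -0.35 to 0.60 for Dnajb9, -0.25 to 0.58 for Hsp90b1, -0.23 to 0.60 for Hspa5 and -0.13 to 0.33 for Xbp1. At day 30 Hspa5 ranged from -0.0082 to 0.82, and against day 10 Asns ranged from -1.47 to 0.39 and Trib3 from -0.88 to 0.067.

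The meaning of the replicate numbers is not stated. With values centred on the group mean, same-numbered arrays of different groups correlated at -0.13 to 0.15. Differently numbered arrays correlated at -0.21 to 0.21. Of the 15 arrays, 3 correlated best with an array of their own number. These values do not settle whether the samples were paired. With the replicate block 0 genes were called in each comparison, with 714, 1388 and 1117 at an unadjusted p under 0.05.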
